A study of Mus musculus with 8 samples.

Results

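Genes of the proteasome were compared in rib chondrocytes between wild-type (WT) mice and mice without *Mir140*. The members were the protein-coding genes whose symbol is Psm, a letter from a to g and a digit, without the immunoproteasome genes *Psmb8*, *Psmb9* and *Psmb10*. Of 47 such genes, 44 reached at least 0.5 TPM (a transcript's share of the library, corrected for its length and scaled to a common total) in at least 4 of the 8 libraries, as did 17177 of all 52325 gene identifiers. They comprised the 14 genes of the 20S core, 17 genes of the 19S regulatory particle, 7 assembly chaperones, 5 activators or inhibitors, and *Psmc3ip*, a meiotic recombination gene that shares only the start of its symbol with the subunits. The 3 genes below the filter were *Psma8*, *Psmb11* and *Psme2b*, which reached at most 0.517, 0.265 and 0.409 TPM. Of these, *Psma8* and *Psmb11* encode core subunits known from testis and thymus, and *Psme2b* is a copy of *Psme2*. The pseudogenes *Psmb5-ps*, *Psmb6-ps*, *Psmb6-ps2* and *Psmb7-ps2* were at 0.598 TPM or less in every library.

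The proteasome is the main protease of the cytosol and nucleus. Its core is a barrel of stacked rings, in which the alpha subunits form the gate and the beta subunits encoded by *Psmb5*, *Psmb6* and *Psmb7* cut the protein chain. The regulatory particle binds the ends of the barrel, with a base of ATPases that unfold substrates and a lid that removes the ubiquitin tag. Chondrocytes secrete large amounts of collagen and aggrecan, and misfolded chains of the secretory pathway are passed to the proteasome for degradation.

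RNA-seq was performed on primary costal chondrocytes, freed by collagenase from the ribs of 7-d-old mice on a C57BL/6J background. There were 4 WT and 4 *Mir140*-null libraries. The null allele lacks *Mir140* in all cells of the mouse, since it was made with CRISPR/Cas9 in zygotes of mixed C57BL/6 and CBA/Ca origin, and founders were backcrossed to C57BL/6J before WT and null lines were bred from heterozygous mice. Whether each library came from a separate animal is not stated, so p-values measure the spread between these libraries, which may be technical.

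Chondrocyte markers summed to 60322 to 76010 TPM in WT and 44143 to 60575 TPM in null libraries. Most of each sum was *Col2a1*, at a mean of 57785 TPM in WT and 41414 TPM in null libraries. Of the 11 markers, 9 had a log2 fold change (null minus WT) below 0 and 2 above it, among them *Acan* (mean 552 TPM in WT, 1010 TPM in null). *Mir140* was listed at 0 TPM in all libraries except the library labelled *Mir140*-null replicate 2 (8.86 TPM), so its level does not check the labels and the groups are those of the labels throughout. *Mir140*-null replicates 1 and 2 stood apart in 5 fibroblast markers, all detected, which summed to 210 and 211 TPM there, 3799 and 2426 TPM in null replicates 3 and 4, and 2060 to 4293 TPM in WT libraries. Leukocyte markers, all 5 detected with *Ptprc* at 0.59 TPM or less, summed to 65.0 to 81.0 TPM in WT and 32.1 to 50.3 TPM in null libraries. Mitochondrial genes took 4.06% to 6.99% of WT and 8.41% to 10.1% of null TPM. The part of the leukocyte and mitochondrial differences in the results was not tested. For the fibroblast markers, counts of called genes are also given without null replicates 1 and 2 and with the fibroblast marker level as a covariate. These fits cannot tell the fibroblast markers apart from other traits of null replicates 1 and 2. In bulk RNA, a change in the mix of cells and a change of RNA per cell cannot be told apart.

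Proteasome genes were higher in *Mir140*-null chondrocytes as a group. The log2 fold change (null minus WT, on the log2(TPM + 1) scale) was above 0 for 40 of the 44 members and for all 31 genes of the core and regulatory particle. Beside this, 8460 of all 17177 genes tested were above 0. So were 4953 of the 8009 protein-coding genes with a mean of at least 5 TPM. The median was 0.43 over the members, -0.01 over all genes tested, and 0.13 over the 8009 protein-coding genes with a mean of at least 5 TPM, the range in which most members lie. Together the members made up 0.178% to 0.183% of the TPM of WT libraries and 0.287%, 0.226%, 0.229% and 0.204% of the TPM of null replicates 1 to 4. The null mean (0.236% ± 0.0355, SD, n = 4) was 1.32 times the WT mean (0.1796% ± 0.0023, SD, n = 4), and the genotypes did not overlap.

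**Figure D1:**
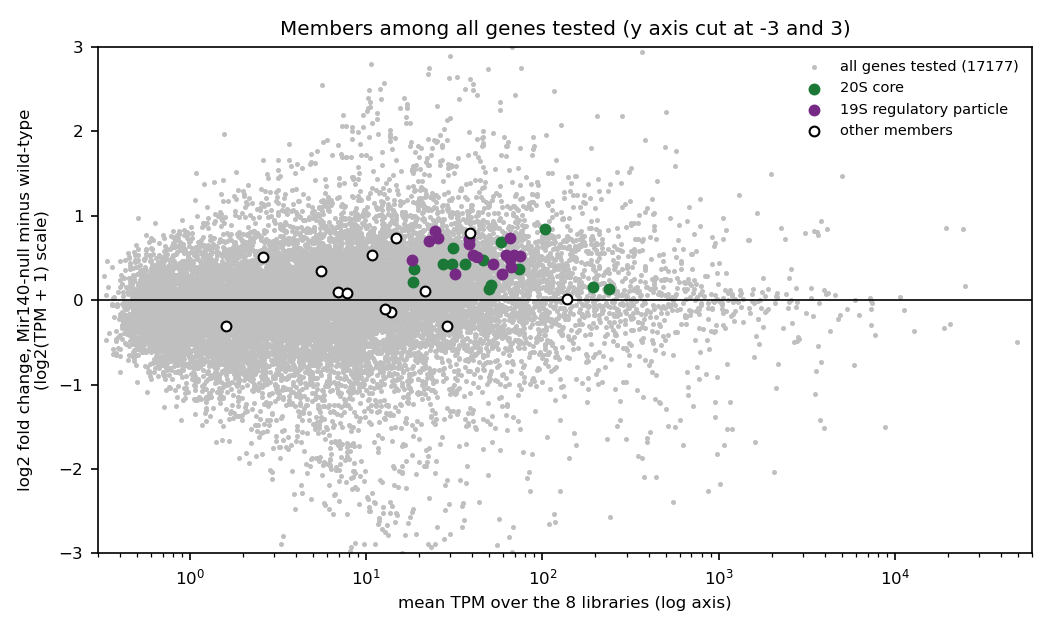
Log2 fold change (null minus WT, y axis) against the mean TPM of the 8 libraries (x axis, log scale) for all 17177 genes tested (grey) and the 44 members (core green, regulatory particle purple, other members white), with genes beyond the ends of the y axis not drawn. All 31 core and regulatory particle genes lie above 0, between 0.14 and 0.84.

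With limma, fitted across all genes and adjusted by the Benjamini-Hochberg (BH) method, 16 of 44 members (36.4%) rose at an adjusted p under 0.05, beside 10.5% of all genes tested and 17.4% of the protein-coding genes with a mean of at least 5 TPM. None of the 44 fell, beside 6.4% of all genes and 4.94% of the more abundant protein-coding genes. At an unadjusted p under 0.05, 29 members (65.9%) were higher and 0 lower, beside 19% and 14.9% of all genes. In the fit without null replicates 1 and 2, 20 members had an unadjusted p under 0.05, counted in either direction. The share of all genes at that threshold in that fit is not reported here. All 4 null libraries lay above all 4 WT libraries for 26 members (59.1%), beside 15.7% of all genes and 25.6% of the more abundant protein-coding genes. No member lay wholly below, beside 10.2% and 8.19%.

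The number of members called depended on single libraries. It was 4, 6, 2 and 5 without WT replicate 1, 2, 3 or 4, and 9, 4, 12 and 17 without null replicate 1, 2, 3 or 4, and 0 members were called lower in these fits. Without WT replicate 3, the 4.55% of members called was no more than the 4.62% of all genes, and in the other 7 of these fits the members' share (9.09% to 38.6%) was above that of all genes (4.54% to 9.04%). Without null replicates 1 and 2 together, only *Psma6* was called (log2 fold change 0.56, limma, adjusted p = 0.0401), and the share called was 2.27% of members and 2.08% of all genes. The median over the members was then 0.30, and all 31 subunit genes stayed above 0. With the fibroblast marker level as a covariate, 1 member was called higher (2.27%), below the 3.99% of all genes. The median over the members was 0.32 in that fit, and all 31 subunit genes were above 0. Null replicates 3 and 4 alone lay above every WT library for 30 of 44 members (68.2%), beside 24.7% of all genes and 35.8% of the more abundant protein-coding genes.

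**Figure D2:**
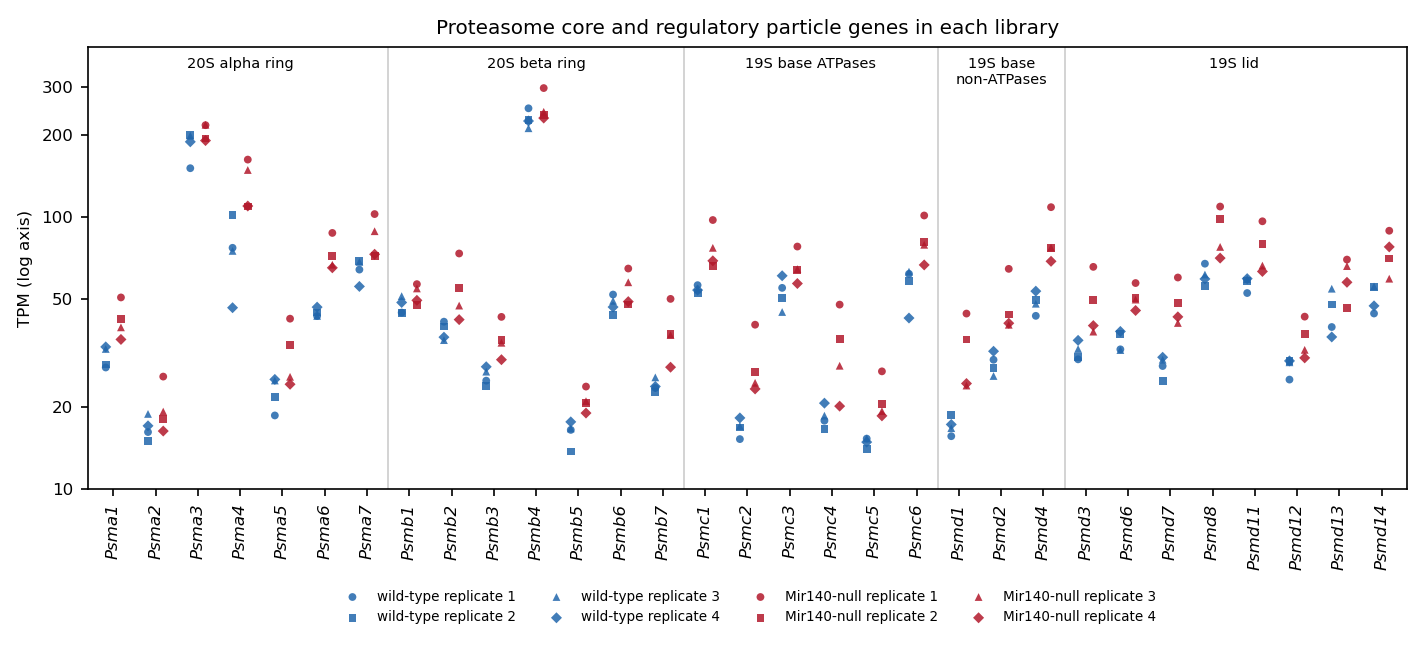
TPM (y axis, log scale) of the 31 core and regulatory particle genes in each of the 4 WT (blue) and 4 *Mir140*-null (red) libraries, with 1 symbol shape per replicate number. Null replicate 1 (red circles) is the highest null library for 30 of the 31 genes.

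The size of the difference varied among the null libraries, with replicate 1 mostly the highest and no common order among the others. Null replicate 1 held the highest null value for 37 of the 44 members, and the lowest null value lay in replicate 4 for 24 members and in replicate 2 for 14. Against the WT mean, the median shift of the members was 0.71, 0.43, 0.35 and 0.20 (log2) in null replicates 1 to 4, and that of all genes tested was between -0.09 and 0.11. The WT libraries spanned -0.04 to 0.04 on the same measure, so every null library lay outside the WT range.

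Among the 7 genes of the alpha ring, which forms the ends of the barrel and its gate, 1 rose (14.3%). The shares were 10.5% of all genes and 17.4% of the more abundant protein-coding genes. All 7 were above 0 (median 0.43, range 0.16 to 0.84). *Psma6*, on chromosome 12 (55384222 to 55418454, plus strand, GRCm38 with GENCODE M21), had the smallest p of all members. Its level was 43.2, 44.5, 43.2 and 46.6 TPM in WT replicates 1 to 4 and 87.2, 71.9, 66.6 and 64.9 TPM in null replicates 1 to 4. The WT libraries lay close together, and every null library was well above them. The log2 fold change was 0.69 (SE 0.11, limma, adjusted p = 0.00993), and *Psma6* was called whichever library was left out.

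*Psma4* had the largest fold change of the members (0.84, SE 0.25) but missed the threshold (limma, adjusted p = 0.0503). Its libraries scattered within both genotypes, at 76.9, 102, 74.9 and 46.3 TPM in WT and 162, 109, 148 and 109 TPM in null libraries, without overlap. The most abundant alpha gene, *Psma3*, was at 151, 200, 198 and 188 TPM in WT and 217, 194, 218 and 190.4 TPM in null libraries, which overlap (log2 fold change 0.16, limma, adjusted p = 0.37). The least abundant, *Psma2*, was at 16.2, 15.1, 18.9 and 17.1 TPM in WT and 25.9, 18.04, 19.2 and 16.3 TPM in null libraries, with null replicates 1 and 3 above the WT range. *Psma1* and *Psma7* did not overlap between genotypes and were not called (0.43 and 0.37), and *Psma5* overlapped (0.43).

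Of the 7 genes of the beta ring, 1 rose (14.3%, beside 10.5% of all genes and 17.4% of the more abundant protein-coding genes). All 7 were above 0 (median 0.37, range 0.14 to 0.62). The 3 catalytic subunits did not have like values. *Psmb7*, the trypsin-like subunit, on chromosome 2 (38588036 to 38644087), was at 23.5, 22.8, 25.7 and 23.8 TPM in WT and 49.9, 37.2, 36.7 and 28.0 TPM in null libraries, and rose by 0.62 on the log2 scale (SE 0.17, limma, adjusted p = 0.039). *Psmb5*, the chymotrypsin-like subunit, was at 16.5, 13.7, 16.7 and 17.6 TPM in WT and 23.8, 20.7, 21.0 and 19.004 TPM in null libraries, without overlap but not called (0.37, SE 0.12, limma, adjusted p = 0.066). *Psmb6*, the caspase-like subunit, was at 51.8, 43.4, 49.1 and 46.6 TPM in WT and 64.5, 47.6, 57.4 and 48.8 TPM in null libraries, which overlap (0.18, SE 0.12, limma, adjusted p = 0.332). Differences between the changes of these 3 genes were not tested.

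*Psmb4*, a structural beta subunit and the most abundant member at a mean of 239.7 TPM, was at 250.1, 226, 211 and 225 TPM in WT and 297, 236, 243 and 230.3 TPM in null libraries. These overlap, and its log2 fold change was 0.14 (limma, adjusted p = 0.407). *Psmb2* and *Psmb3* did not overlap between genotypes without being called (0.47 and 0.43), and *Psmb1* overlapped (0.14). In the core, the call of *Psmb7* was lost without any 1 of the 4 WT libraries and without null replicate 1, 2 or 3 (log2 fold change 0.48 to 0.75), and *Psma6* was the only core gene called in all 8 of these fits.

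All 9 genes of the base of the regulatory particle were above 0, and 6 rose. Among the 6 ATPases, which form the unfolding ring, *Psmc1*, *Psmc2* and *Psmc5* rose (50%, beside 10.5% of all genes), with a median of 0.51 over the 6. *Psmc2*, on chromosome 5 (21785283 to 21803787), was at 15.2, 16.8, 17.03 and 18.2 TPM in WT and 40.1, 26.9, 24.5 and 23.3 TPM in null libraries (0.71, SE 0.17, limma, adjusted p = 0.031). Every null library lay above the WT libraries, null replicate 1 furthest. *Psmc1* was at 56.1, 52.3, 54.1 and 53.8 TPM in WT and 97.2, 66.1, 76.9 and 68.9 TPM in null libraries (0.49, limma, adjusted p = 0.0373). *Psmc5*, the least abundant, was at 15.3, 13.99, 15.3 and 14.9 TPM in WT and 27.0, 20.5, 19.3 and 18.6 TPM in null libraries (0.48, limma, adjusted p = 0.044). *Psmc6*, the most abundant ATPase gene, was at 61.7, 58.2, 62.8 and 42.4 TPM in WT and 101, 80.7, 78.9 and 66.5 TPM in null libraries, without overlap and not called (0.53, limma, adjusted p = 0.0633). *Psmc4* and *Psmc3* overlapped (0.74 and 0.31).

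The 3 base genes that are not ATPases, *Psmd1*, *Psmd2* and *Psmd4*, all rose (beside 10.5% of all genes), with a median of 0.74. *Psmd4* encodes a receptor for ubiquitin chains and lies on chromosome 3 (95032694 to 95042614, minus strand). It was at 43.2, 49.6, 47.9 and 53.3 TPM in WT and 108, 76.8, 76.9 and 68.6 TPM in null libraries (0.74, SE 0.15, limma, adjusted p = 0.018). *Psmd2*, a scaffold that docks ubiquitin-like carriers, was at 29.8, 27.9, 26.002 and 32.1 TPM in WT and 64.3, 43.7, 40.1 and 40.6 TPM in null libraries (0.66, SE 0.16, limma, adjusted p = 0.0315). *Psmd1*, the other large scaffold, was at 15.6, 18.7, 16.7 and 17.3 TPM in WT and 44.1, 35.4, 23.98 and 24.4 TPM in null libraries (0.82, SE 0.20, limma, adjusted p = 0.0296). In all 3, null replicate 1 was the highest null library, and the lowest null library was above the highest WT library.

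The lid genes were above 0 in all 8 cases (median 0.52, range 0.31 to 0.72), and 4 rose (50%, beside 10.5% of all genes). *Psmd14*, the deubiquitinase that releases the ubiquitin chain, on chromosome 2 (61711694 to 61800376), was at 44.1, 55.2, 55.4 and 47.0 TPM in WT and 88.8, 70.2, 59.2 and 77.5 TPM in null libraries (0.53, SE 0.14, limma, adjusted p = 0.0407). *Psmd7*, its partner in the lid, on chromosome 8 (107580381 to 107588464), was at 28.3, 24.9, 29.8 and 30.5 TPM in WT and 59.8, 48.2, 40.7 and 42.9 TPM in null libraries (0.72, SE 0.14, limma, adjusted p = 0.0156). *Psmd7* was called whichever library was left out, as was *Psma6*. *Psmd6*, a scaffold of the lid, was at 32.6, 37.1, 32.4 and 37.9 TPM in WT and 57.1, 50.1, 49.6 and 45.2 TPM in null libraries (0.52, SE 0.11, limma, adjusted p = 0.0196). *Psmd8*, the most abundant lid gene, was at 67.2, 55.6, 61.3 and 59.1 TPM in WT and 109, 97.9, 77.5 and 70.5 TPM in null libraries (0.52, limma, adjusted p = 0.0498).

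Of the other lid genes, the least abundant, *Psmd12*, was at 25.2, 29.6, 29.2 and 29.5 TPM in WT and 43.0, 37.1, 32.4 and 30.3 TPM in null libraries, without overlap and not called (0.31, limma, adjusted p = 0.134). *Psmd3* and *Psmd11* also did not overlap (0.54 and 0.39), and *Psmd13* overlapped (0.42). Leaving out WT replicate 3 ended the calls of all the regulatory particle genes except *Psmd7*, with log2 fold changes that stayed above 0. *Psmd4* lost its call only there (limma, adjusted p = 0.0508), and *Psmd6* there and without null replicate 2. *Psmc1*, *Psmc2*, *Psmc5*, *Psmd1*, *Psmd2*, *Psmd8* and *Psmd14* lost it without any 1 WT library and without null replicate 2. *Psmc5*, *Psmd8* and *Psmd14* also lost it without null replicate 1, *Psmc1*, *Psmc5* and *Psmd8* without null replicate 3, and *Psmd14* without null replicate 4.

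**Figure D3:**
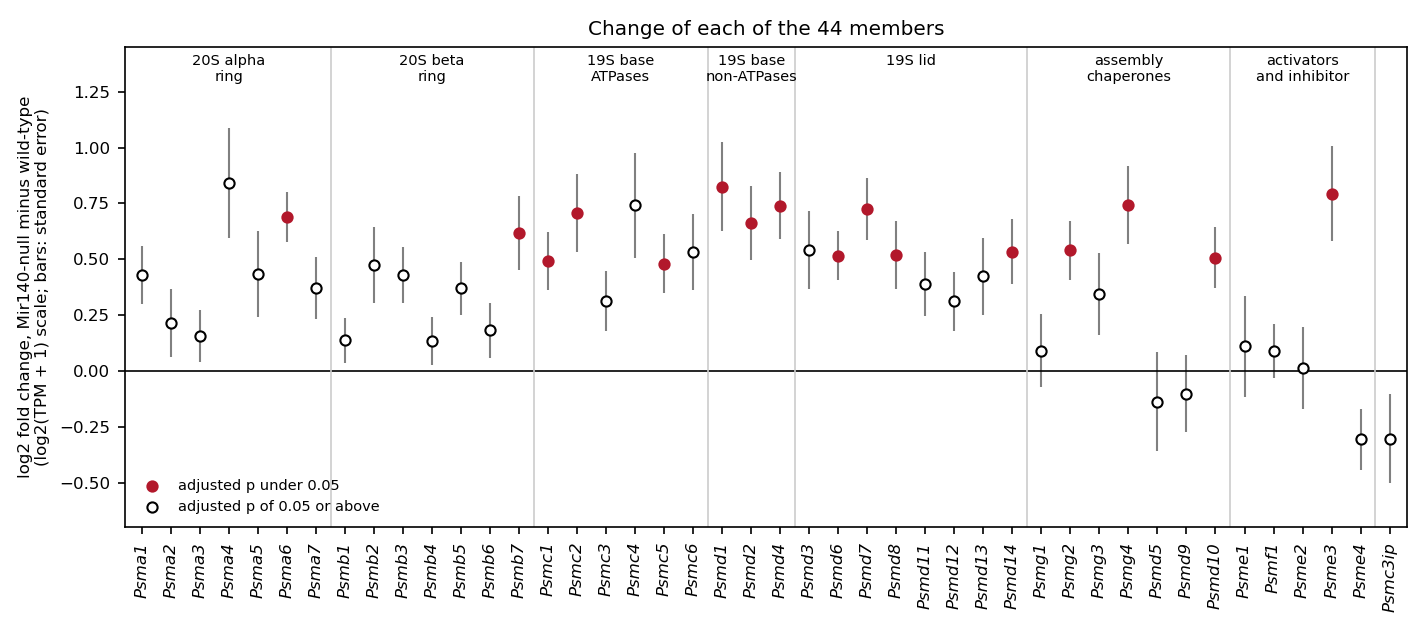
Log2 fold change (null minus WT, y axis) of each of the 44 members grouped by role, with bars for the standard error of limma; filled points have a BH-adjusted p under 0.05 (16 members, all above 0). The 17 regulatory particle genes lie between 0.31 and 0.82, while the chaperones and activators spread from -0.31 to 0.79.

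Core and regulatory particle genes were then set side by side. Of the 17 regulatory particle genes, 10 were called higher (58.8%) and all 17 had an unadjusted p under 0.05, with a median log2 fold change of 0.53. Of the 14 core genes, 2 were called higher (14.3%) and 8 had an unadjusted p under 0.05, with a median of 0.40. In this fit, the core share called lay between the 10.5% of all genes and the 17.4% of the more abundant protein-coding genes. At an unadjusted p under 0.05, 19% and 29.9% of these gene sets were higher. Without null replicates 1 and 2, 0 regulatory particle genes and 1 core gene were called by limma, so the contrast in calls was not seen there. Counts also moved with the processing. With only genes of a mean of at least 5 TPM, 6 core and 10 regulatory particle genes were called higher (17.6% of all genes there). With 1 factor from residuals these were 6 and 14 (14.3%). They were 1 and 3 with median-ratio scaling (7.96%) and quantile normalization (8.77%). With the factor from the genes with the least evidence they were 1 and 2 (5.70%). A replicate block or the fibroblast covariate left 1 and 0 (3.91% and 3.99%). All null libraries lay above all WT libraries for 14 regulatory particle (82.4%) and 8 core genes (57.1%). The shares were 15.7% of all genes and 25.6% of the more abundant protein-coding genes. Null replicates 3 and 4 alone lay above all WT libraries for 15 (88.2%) and 8 (57.1%), beside 24.7% and 35.8%. The median gene had a mean level of 42.8 TPM in the regulatory particle and 47.8 TPM in the core. Across the 31 genes the mean TPM and the log2 fold change had a Spearman's rho of -0.14, given as a description, since the points share the same 8 libraries.

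Summed over its genes, the core was at 850, 894, 877 and 838 TPM in WT and 1295, 1018, 1099 and 961 TPM in null libraries. The null mean (1093 ± 146 TPM, SD, n = 4) was 1.26 times the WT mean (865 ± 25.6 TPM, SD, n = 4). The regulatory particle was at 629, 643, 657 and 648 TPM in WT and 1196, 927, 862 and 814 TPM in null libraries, and the null mean (950.1 ± 170.5 TPM, SD, n = 4) was 1.47 times the WT mean (644 ± 12.0 TPM, SD, n = 4). Both sums were higher in every null than in every WT library. The SD among null libraries was also larger than that among WT libraries for both sums.

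The ratio of the mean TPM of a core gene to that of a regulatory particle gene was 1.64, 1.69, 1.62 and 1.57 in WT and 1.31, 1.33, 1.55 and 1.43 in null libraries. The null values (1.41 ± 0.107, SD, n = 4) lay below all WT values (1.63 ± 0.0492, SD, n = 4), with WT replicate 4 and null replicate 3 nearest to each other. Sums and ratios of TPM weigh the most abundant genes most. Of the WT core mean of 865 TPM, *Psmb4* and *Psma3* held 228 and 184 TPM, and their null means were 251 and 205 TPM. The contrast in sums and in this ratio therefore leans on these genes. On the log2(TPM + 1) scale, the median core gene was 0.36, 0.15, 0.25 and 0.17 above the median regulatory particle gene in WT replicates 1 to 4. In null replicates 1 to 4 this difference was -0.11, -0.06, 0.03 and -0.0014. Its mean in null minus its mean in WT libraries was -0.27, without overlap, and -0.22 without null replicates 1 and 2. Taken gene by gene against the WT mean, the median shift of core genes was 0.69, 0.38, 0.33 and 0.16 (log2) in null replicates 1 to 4. That of regulatory particle genes was 0.84, 0.53, 0.47 and 0.34, so the gap was smaller on this measure than -0.27. No p-value is attached to these scores over chosen genes.

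**Figure D4:**
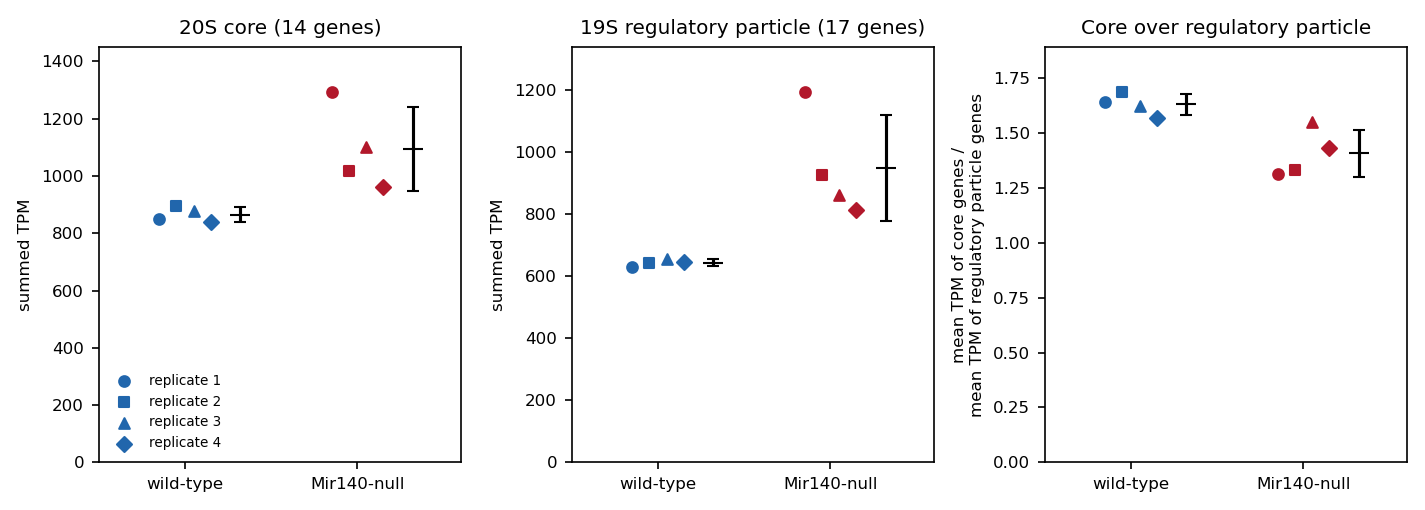
Summed TPM of the 14 core genes (left) and the 17 regulatory particle genes (middle), and the ratio of mean core to mean regulatory particle TPM (right), in each WT (blue) and *Mir140*-null (red) library; bars show mean and SD of 4 libraries. All null sums lie above all WT sums, and all null ratios (1.31 to 1.55) lie below all WT ratios (1.57 to 1.69).

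Of the 7 assembly chaperones, 3 rose (42.9%, beside 10.5% of all genes) and 5 were above 0 (median 0.34). *Psmg4*, which helps to build the alpha ring, was at 8.23, 12.3, 9.05 and 13.8 TPM in WT and 21.5, 17.4, 17.7 and 17.5 TPM in null libraries (0.74, SE 0.17, limma, adjusted p = 0.0273). *Psmg2*, also of the alpha ring pathway, was at 8.58, 7.93, 8.59 and 9.05 TPM in WT and 16.3, 12.2, 11.9 and 11.6 TPM in null libraries (0.54, SE 0.13, limma, adjusted p = 0.0311). *Psmd10*, a chaperone of the base also known as gankyrin, was the least abundant of them, at 1.69, 2.10, 1.78 and 2.26 TPM in WT and 3.16, 2.54, 3.48 and 3.68 TPM in null libraries (0.51, SE 0.14, limma, adjusted p = 0.0403). These 3 genes did not overlap between genotypes, and null replicate 1 was the highest null library for *Psmg2* and *Psmg4* but not for *Psmd10*.

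The other base chaperones lay below 0 and overlapped between genotypes. *Psmd5* was at 14.7, 14.8, 14.5 and 12.7 TPM in WT and 11.5, 8.16, 17.9 and 15.6 TPM in null libraries (-0.14), with null replicates 1 and 2 below and replicates 3 and 4 above all WT libraries. *Psmd9* had -0.10, and the alpha ring chaperones *Psmg1* and *Psmg3* had 0.09 and 0.34, none of them called. *Psmg2* lost its call without any 1 WT library and without null replicate 2 (0.43 to 0.59). *Psmg4* lost it without WT replicate 1 or 3 or null replicate 1 or 2 (0.63 to 0.86), and *Psmd10* without any 1 WT library or null replicate 1, 3 or 4 (0.45 to 0.59).

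Activators and the inhibitor did not move together, with 1 of 5 called higher (20%) and a median of 0.09. The shares called higher were 10.5% of all genes and 17.4% of the more abundant protein-coding genes. *Psme3*, which encodes the nuclear activator PA28 gamma, on chromosome 11 (101316213 to 101323537), was at 27.3, 29.5, 24.7 and 27.8 TPM in WT and 68.6, 57.4, 38.6 and 34.8 TPM in null libraries (0.79, SE 0.21, limma, adjusted p = 0.0395). It was the activator gene without overlap, and its call was lost without any 1 WT library and without null replicate 1 or 2 (0.62 to 0.94). *Psme2*, which encodes a subunit of the interferon-induced activator PA28 alpha-beta, was at 156, 108, 139 and 146 TPM in WT and 163, 149.7, 148 and 98.5 TPM in null libraries, which overlap (0.01, SE 0.18), and the sign of its change turned with the processing. Its partner *Psme1* had 0.11, and *Psme4*, which encodes PA200, had -0.31 with overlap (limma, adjusted p = 0.158).

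The predicted targets used in the study are of human genes and were matched here to mouse genes by symbol. No member was among its predicted miR-140-3p targets. *Psmf1*, which encodes the proteasome inhibitor PI31, was the only member among its predicted miR-140-5p targets. It was at 6.72, 7.997, 7.34 and 7.87 TPM in WT and 7.62, 7.12, 8.85 and 8.55 TPM in null libraries. These overlap, and the log2 fold change was 0.09 (SE 0.12, limma, adjusted p = 0.631). *Psmc3ip*, matched by symbol only, was at 2.03, 1.95, 1.91 and 1.47 TPM in WT and 0.61, 1.23, 2.05 and 1.53 TPM in null libraries (-0.30, limma, adjusted p = 0.316).

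Genes that act with the proteasome were taken from 4 lists, of which 32 genes could be tested. Among these 8 rose (25%) and 2 fell (6.25%), beside 10.5% and 6.4% of all genes. Of the protein-coding genes with a mean of at least 5 TPM, the range of all 32, 17.4% rose and 4.94% fell. The median log2 fold change was 0.18 over the 32 genes and 0.13 over those more abundant protein-coding genes. The first list held proteasome parts and partners that carry other symbols, of which 8 were tested. *Adrm1*, a ubiquitin receptor of the regulatory particle, was at 17.6, 20.1, 16.7 and 21.3 TPM in WT and 50.3, 37.4, 28.4 and 25.4 TPM in null libraries (0.82, SE 0.21, limma, adjusted p = 0.0344). *Uchl5*, the deubiquitinase that *Adrm1* protein recruits, fell, with 47.1, 56.2, 53.9 and 51.8 TPM in WT and 18.3, 15.4, 39.3 and 29.1 TPM in null libraries (-1.09, SE 0.27, limma, adjusted p = 0.0305). Null replicates 1 and 2 were the lowest for *Uchl5*, and all null libraries lay below all WT libraries. *Txnl1*, a thioredoxin-like protein bound to the regulatory particle, was at 20.6, 22.5, 20.9 and 20.01 TPM in WT and 41.5, 35.1, 28.3 and 29.9 TPM in null libraries (0.64, SE 0.13, limma, adjusted p = 0.0192).

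The remaining 5 genes of that list were not called. *Akirin2*, which carries proteasomes into the nucleus and is a predicted miR-140-5p target, had a log2 fold change of 0.58 without overlap (limma, adjusted p = 0.0538). *Usp14*, a deubiquitinase of the regulatory particle, and *Ecpas*, a proteasome adaptor, had 0.47 and 0.53, also without overlap. *Sem1*, a small lid subunit, had 0.03, and *Pomp*, the maturation factor of the core, had -0.17, and both overlapped. Of the immunoproteasome genes, which replace the catalytic subunits after interferon, *Psmb8* and *Psmb9* did not pass the filter (at most 1.69 and 1.44 TPM). *Psmb10* was at 4.02, 1.86, 2.12 and 5.11 TPM in WT and 7.55, 4.45, 8.50 and 7.65 TPM in null libraries, which overlap (0.95, limma, adjusted p = 0.0577).

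The second group held 7 regulators of proteasome gene transcription. *Nfe2l1* encodes the transcription factor that raises proteasome genes when degradation is impaired, and *Nfe2l2* its oxidative stress paralog. *Nfe2l1* was at 116, 172, 135 and 147 TPM in WT and 244, 248, 197 and 254 TPM in null libraries (0.73, SE 0.14, limma, adjusted p = 0.0157). *Nfe2l2*, a predicted miR-140-5p target, was at 29.9, 34.2, 32.5 and 34.8 TPM in WT and 59.2, 44.1, 52.8 and 54.5 TPM in null libraries (0.66, SE 0.11, limma, adjusted p = 0.0119). Both rose without overlap. Null replicate 4 was the highest library for *Nfe2l1* and null replicate 1 for *Nfe2l2*. The small Maf proteins pair with both factors, and *Maff* fell, from 142, 128, 129.8 and 127 TPM in WT to 75.0, 114, 95.4 and 90.6 TPM in null libraries (-0.50, SE 0.13, limma, adjusted p = 0.0354). *Mafk* and *Mafg* had -0.23 and -0.16 and were not called, and *Mafg* is a predicted miR-140-3p target. *Ddi2*, the protease that cuts the *Nfe2l1* protein into its active form, and *Ngly1*, which removes its sugars, had -0.05 and -0.02, and *Ddi2* is a predicted miR-140-3p target.

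**Figure D5:**
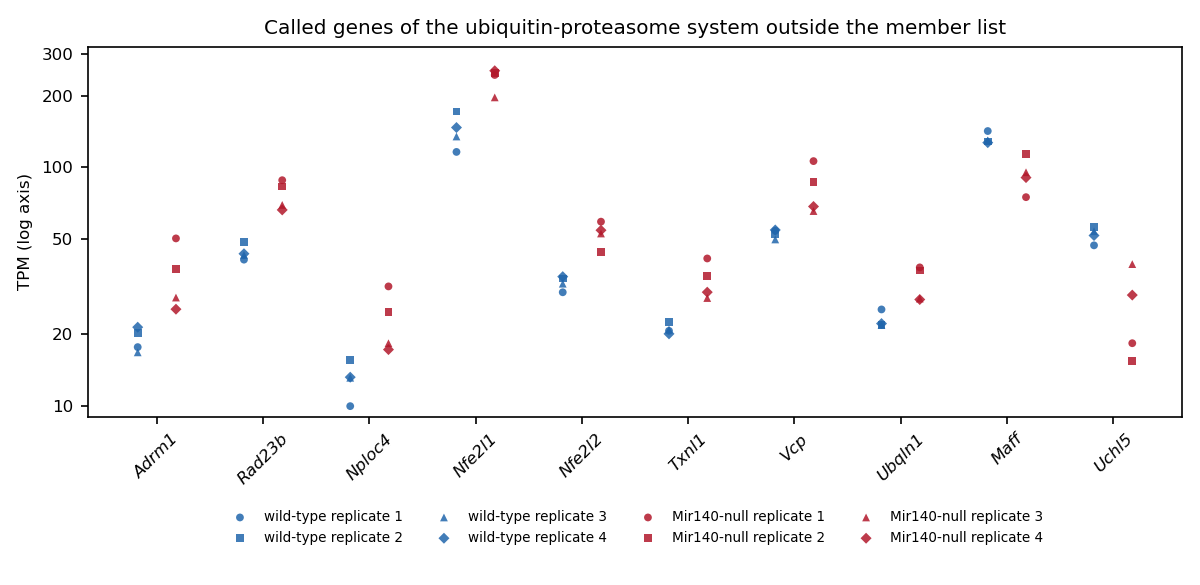
TPM (y axis, log scale) of the 10 called genes of the pathway lists in each of the 4 WT (blue) and 4 *Mir140*-null (red) libraries. The genotypes do not overlap for any of the 10, and *Maff* and *Uchl5* are the 2 that lie lower in null libraries.

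Of 16 genes for ubiquitin, its activation and its delivery to the proteasome, 4 rose (25%, beside 10.5% of all genes) and 0 fell with limma. Of the more abundant protein-coding genes, 17.4% rose. At an unadjusted p under 0.05, 6 were higher (37.5%) and 2 lower (12.5%), beside 19% and 14.9% of all genes. The shares of the more abundant protein-coding genes were 29.9% and 11.3%. All 4 genes that rose belong to the delivery machinery. *Rad23b*, a shuttle that carries ubiquitylated proteins, was at 41.0, 48.5, 42.9 and 43.4 TPM in WT and 88.3, 83.1, 69.5 and 66.3 TPM in null libraries (0.78, SE 0.12, limma, adjusted p = 0.00857). *Vcp*, the ATPase that pulls ubiquitylated proteins out of membranes and complexes, was at 54.2, 52.7, 49.8 and 54.6 TPM in WT and 106, 86.7, 65.6 and 68.5 TPM in null libraries (0.59, SE 0.16, limma, adjusted p = 0.0372). Its cofactor *Nploc4* was at 9.95, 15.6, 13.1 and 13.2 TPM in WT and 31.6, 24.7, 18.3 and 17.2 TPM in null libraries (0.76, SE 0.22, limma, adjusted p = 0.0471). As for most subunits, null replicate 1 was the highest library for these 3 genes. *Ubqln1*, another shuttle, was at 25.3, 21.8, 21.8 and 22.1 TPM in WT and 38.0, 36.9, 28.1 and 27.9 TPM in null libraries (0.49, SE 0.14, limma, adjusted p = 0.0423).

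Other genes of that list were not called. *Rps27a*, which encodes ubiquitin fused to a ribosomal protein, had 0.37 without overlap, and *Ubb*, a polyubiquitin gene, had -0.15 with overlap. *Uba1* and *Uba6*, which encode the enzymes that activate ubiquitin, had 0.18 and -0.13. The shuttle *Ubqln2* (-0.16) and *Zfand5* (0.06), whose product activates the proteasome, are predicted miR-140-3p targets and were not called. Of the 10 called pathway genes, *Rad23b*, *Nfe2l1* and *Nfe2l2* were called whichever library was left out. Of the other 7, *Adrm1*, *Uchl5*, *Vcp*, *Nploc4* and *Ubqln1* lost their calls without any 1 WT library or null replicate 1 or 2. *Maff* lost it without any 1 WT library or null replicate 1, 3 or 4, and *Txnl1* without WT replicate 3 or 4 or null replicate 2. Without null replicates 1 and 2 together, *Rad23b* (0.62), *Nfe2l2* (0.69) and *Maff* (-0.50) were still called.

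Because NFE2L1 acts on proteasome genes through antioxidant response elements, the promoters of the members were searched for the core letters TGACNNNGC on both strands, and for CCAAT, read by NF-Y, on both strands. RefSeq windows of GRCm38.p6, 250 bases before to 50 bases after each start, were given for 37 of the 44 members (40 windows). TGACNNNGC was in 6 of the 40 member windows (15%) and in 12.4% of all 32851 windows, and CCAAT in 13 (32.5%) and in 37.4%. Both shares lay near those of all promoters. Among core and regulatory particle genes, the letters TGACNNNGC were in windows of *Psmb5*, *Psmb6*, *Psmc6* and *Psmd12*, which were not called. The stretches that hold these letters (capitals) are shown. They are printed 5′ to 3′ on the strand of the gene (GRCm38.p6), from chr14:54618018-54618058 (minus strand), chr11:70525332-70525372, chr14:45329581-45329621 and chr11:107479278-107479305 (plus strand).
Psmb5: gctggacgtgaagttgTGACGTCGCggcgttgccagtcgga
Psmb6: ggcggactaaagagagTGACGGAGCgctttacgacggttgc
Psmc6: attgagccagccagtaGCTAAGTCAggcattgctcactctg
Psmd12: tctGCTGTGTCAcatttgcccccctcag

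In *Psmb5* and *Psmb6* the letters lie on the strand of the gene, and in *Psmc6* and *Psmd12* on the other strand, so that the capitals there read as the reverse complement. Of the 12 called core and regulatory particle genes, 10 had a window (*Psmb7* and *Psmd7* had none). None of these windows held TGACNNNGC, beside 12.4% of all windows, and so few windows cannot show a difference from that share. CCAAT stood in the windows of 5 of the 10 genes, beside 37.4% of all windows. It is shown for these 5 (capitals, ATTGG where it lies on the other strand) at the match before the start that is nearest to it. These come from chr12:55384177-55384213, chr12:100110011-100110047, chr5:21785231-21785267, chr3:95042689-95042725 (minus strand) and chr2:61711519-61711555, the others on the plus strand.
Psma6: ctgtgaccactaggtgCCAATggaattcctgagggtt
Psmc1: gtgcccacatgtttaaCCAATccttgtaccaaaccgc
Psmc2: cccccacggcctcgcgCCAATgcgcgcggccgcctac
Psmd4: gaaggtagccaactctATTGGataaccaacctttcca
Psmd14: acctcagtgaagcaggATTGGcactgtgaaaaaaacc

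The letters of these windows do not show which factor bound there, and binding was not measured. *Psmb5* and *Psmb6* each hold TGACNNNGC shortly before their start (43 and 5 bases from it to the middle of the match). Their log2 fold changes were 0.37 without overlap and 0.18 with overlap. Whether these letters bear on the level of either gene was not tested.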

How the data were processed

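RNA of primary costal chondrocytes of 7-d-old WT and *Mir140*-null mice was made into 4 stranded poly(A) libraries per genotype and sequenced as single-end reads by the authors, who mapped them to the mm10 transcriptome with Salmon and deposited 1 TPM value per Ensembl gene and library. The submitters' processing notes also name FastQC 0.11.7 and DESeq2, which the authors used for their own tests. The Salmon version and the step from transcripts to genes are not given in the sources used here. The deposited TPM hold no scaling between libraries beyond the common total of 1000000 and none of the RUVSeq and DESeq2 steps of the authors, and they carry no read counts, so depth per value is unknown and no counting error was attached. TPM weigh each gene by its transcript length and are scaled to a common total, so a gain in some genes lowers the share of others.

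Identifiers listed on several lines were counted once (52865 lines, 52325 identifiers). Symbols, biotypes and positions came from GENCODE M21 (99.8% of identifiers matched). Each gene that reached 0.5 TPM in 4 or more libraries entered a fit with limma 3.58.1 (R 4.3.3) on log2(TPM + 1), with a mean-variance trend and genotype as the only term, two-sided, and adjusted by the Benjamini-Hochberg method over all 17177 genes. The pseudocount of 1 makes fold changes of low genes smaller. Genes were called at an adjusted p under 0.05. Tables and figures used Python 3.11.15, pandas 2.3.3, NumPy 2.4.6, SciPy 1.17.1 and matplotlib 3.10.9, and the fit was tested on simulated data.

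The members and lists were chosen with earlier results of these data known. Named with all values were the called members, the catalytic subunits, *Psmd14*, *Psmd2*, *Psmd4*, *Psmf1*, the highest and lowest gene of each role, and the called genes of the 4 pathway lists up to 10. Other genes were named after their values were seen, and some genes of the lists are not reported here. Predicted targets were the lists used in the study. Markers of 8 cell types were summed per library. Endothelial, red cell, skeletal muscle, osteoblast and adipocyte markers, whose ranges overlapped between genotypes, summed to at most 23.0, 1854, 76.2, 12.0 and 0.729 TPM in a library. Promoter sequences came from RefSeq (GRCm38.p6), and none was given for 7 members. The alternatives were a pseudocount of 0.1, no filter or a mean of at least 5 TPM, median-ratio, quantile and nuclear protein-coding scaling, a replicate block, 1 factor of unwanted variation by 2 routes, quality weights, leaving out each library and, chosen after seeing the data, leaving out null replicates 1 and 2 together and a fibroblast marker covariate.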

Additional observations from a re-analysis of the deposited data

Results flagged for a closer look

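Within a group of 4 libraries, a value was singled out when its gap to the nearest other library, as a share of the group's range, exceeded Dixon's 95% critical value. Chance singles out about 1 in 20 groups, and 4 of the 96 groups examined were singled out here. In *Mir140*-null replicate 1, *Psmd2* was at 64.34 TPM, above the 40.1 to 43.7 TPM of the other null libraries. *Psmg2* was at 16.26 TPM in the same library, beside 11.57 to 12.2 TPM in the others, and *Psmg4* at 21.46 TPM, beside 17.37 to 17.74 TPM. *Psmd12* was at 25.22 TPM in WT replicate 1, below the 29.2 to 29.59 TPM of the other WT libraries.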

How the results depend on the processing

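The median member log2 fold change was 0.43 and ranged from 0.29 (quantile normalization) to 0.51 over all alternatives, and from 0.34 to 0.51 when each library was left out. All 16 called members stayed above 0 in every alternative in which they were tested. The core minus regulatory particle difference (-0.27) ranged from -0.30 to -0.21, and from -0.30 to -0.23 with each library left out. The count of members called higher (16) was 4 (9.09%, beside 2.67% of all genes) with no filter, which tests 36617 genes. It was 6 (13.6%, beside 7.96%) with median-ratio scaling and 7 (15.9%, beside 8.77%) with quantile normalization. With 1 factor it was 5 (11.4%, beside 5.70%) from the genes with the least evidence, but 24 (54.5%, beside 14.3%) from residuals. The count ranged from 2 to 17 with each library left out, and was 1 (2.27%, beside 2.08% of all genes) without null replicates 1 and 2. With the fibroblast covariate it was 1 (2.27%), below the 3.99% of all genes. Members called lower were 0 throughout, except 1, *Psme4* (-0.45), with quantile normalization. *Psme2* (0.01) turned to -0.0074, -0.15, -0.14 and -0.062 with median-ratio scaling, quantile normalization, the factor from the least changed genes and quality weights, to below 0 without WT replicate 2 or null replicate 1, 2 or 3 (-0.095 to 0.17 with each library left out), to -0.17 without null replicates 1 and 2, and to -0.10 with the covariate. The cause of these differences was not tested, beyond the fewer libraries or larger number of genes of a fit.

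Whether equal replicate numbers mark paired libraries is not stated. After removal of the genotype means, the correlations of same-numbered libraries were 0.031, 0.016, 0.069 and -0.009. Those of differently numbered libraries were -0.085 to 0.072. With 4 libraries per genotype, these values cannot show whether libraries were paired. With a replicate block, 1 member was called higher (*Psma6*, limma, adjusted p = 0.0452) and 0 lower, and 671 genes of all tested were higher and 454 lower. The share called higher was then 2.27% of members, below the 3.91% of all genes.

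Of all genes, 1797 were higher and 1100 lower (62.0% higher). Numbers more than 1.5 times apart were 977 and 539 with no filter, 979 and 426 with the factor from the least changed genes, 609 lower with a mean of at least 5 TPM (73.3% higher), 2016 lower with the factor from residuals, 357 and 210 without null replicates 1 and 2, and 685 and 301 with the covariate. Median-ratio scaling gave 50.9% higher. With each library left out, 779 to 1553 were higher and 419 to 1214 lower.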
